A study of Mus musculus with 8 samples.

Results

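The 40 germline and meiosis genes described here encode proteins that act in sperm and egg precursors, and were listed as genes silenced in mouse embryonic stem cells (mESCs) in part through histone methylation. Some, such as Tex19.1, are known to be active in these cells, and the files hold no transcript levels. They were taken from a fixed list of names, all 40 of which were found among the 21938 protein-coding genes of the GENCODE M21 annotation on chromosomes 1 to 19, X and Y. By role the list held 5 genes of the synaptonemal complex and chromosome axis, 3 of the meiotic cohesin, 8 of meiotic recombination, 12 of the piRNA pathway and transposon control, 5 of RNA binding and translation, 4 of transcription and chromatin, and 3 other germ cell genes. Germline genes are known to be shut off outside the germ line by several layers that share targets: dimethylation of histone H3 lysine 9 (H3K9) by the paired enzymes EHMT1 and EHMT2, H3K9 trimethylation by SETDB1, DNA methylation of CpG-rich promoters, and the Polycomb complex PRC1.6, which reaches DNA through MGA and MAX at E-boxes and through E2F6. Loss of some of these layers is known to raise the transcripts of meiotic and piRNA genes in mESCs.

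All samples were labelled as one line of mESCs, EHMT2-dTAG-mcherry, of BL6/129 hybrid origin, in which both copies of Ehmt2 carry a degron, HA tags and an mCherry reporter at the stop codon. Chromatin immunoprecipitation with sequencing (ChIP-seq) was run against the HA tag with the antibody C29F4 on cells given the solvent DMSO, and with the antibody ab9110 on cells given DMSO or dTAG, a degrader that removes the tagged EHMT2, each for 24 h. The 8 samples gave 4 peak lists: C29F4 in DMSO (2 ChIP samples, from independent clones per the study's methods, merged into 1 list), ab9110 in DMSO, ab9110 in dTAG, and the input chromatin of the ab9110 dTAG sample (1 sample each). All groups carry the tagged allele and, per the study's methods, were grown on fibroblast feeders. The dTAG list is the control for ab9110 peaks that are called without the tagged protein. There was no C29F4 sample in dTAG, so C29F4 peaks have no such control with their own antibody. Per the study's methods, the ab9110 samples came from a separate experiment. With 1 list per condition no difference between lists could be set against replicate error, and peak lists hold no transcript or protein level by which the cell type or the loss of EHMT2 could be checked.

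The lists held 11010, 40816, 16324 and 2050 peaks in that order. Each peak has a fold enrichment, the fragments stacked at its summit plus 1 divided by the expected background plus 1, and the most frequent background was 3.64 fragments for C29F4, 2.11 for ab9110 in DMSO, 1.23 for ab9110 in dTAG and 0.978 for the input. The dTAG library was therefore covered at 58.2% of the ab9110 DMSO level. The C29F4 list was the deepest as merged from its 2 samples, whose separate depths were not available here. A gene was counted as having a peak when a peak overlapped its body extended by 5 kb on both sides, and as having a promoter peak when a summit lay within 1 kb of one of its annotated transcript starts.

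The promoters of the genes with the highest-fold promoter peaks in DMSO are printed as sequence context, and a summit can lie outside the printed stretch. The rule called for the 5 highest, Gtsf1, Ddx4, Zcwpw1, Rpl10l and Spo11, of which the first 4 had an entry in the RefSeq promoter table. Sycp3 and Taf7l were added after their values were seen, because their C29F4 summits lay close to an E-box. Each runs 5′ to 3′ along the gene from 250 bases before to 50 bases after the RefSeq start (GRCm38.p6). The Ddx4 summits lay past the end of its stretch, 280 (C29F4), 414 (ab9110 in DMSO) and 194 bp (dTAG) after that start. Capitals mark the E-box CACGTG and the E2F-type motif GGCGGGA or its complement TCCCGCC. The positions were chr15:103430378-103430677 on the minus strand for Gtsf1, chr13:112652261-112652560 on the minus strand for Ddx4, chr5:137787552-137787851 on the plus strand for Zcwpw1, chr12:66284352-66284651 on the minus strand for Rpl10l, chr10:88459337-88459636 on the plus strand for Sycp3 and chrX:134476441-134476740 on the minus strand for Taf7l.
Gtsf1: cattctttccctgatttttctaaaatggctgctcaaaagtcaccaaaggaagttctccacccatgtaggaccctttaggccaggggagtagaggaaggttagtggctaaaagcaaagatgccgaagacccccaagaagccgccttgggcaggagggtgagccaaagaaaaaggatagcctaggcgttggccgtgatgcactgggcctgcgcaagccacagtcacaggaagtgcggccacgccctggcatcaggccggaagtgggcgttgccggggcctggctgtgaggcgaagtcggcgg
Ddx4: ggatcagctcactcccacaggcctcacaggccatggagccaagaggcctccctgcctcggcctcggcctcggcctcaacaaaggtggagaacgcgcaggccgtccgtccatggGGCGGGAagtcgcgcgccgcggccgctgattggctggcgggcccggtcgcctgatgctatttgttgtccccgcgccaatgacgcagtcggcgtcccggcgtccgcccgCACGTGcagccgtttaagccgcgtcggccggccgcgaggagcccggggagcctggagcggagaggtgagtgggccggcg
Zcwpw1: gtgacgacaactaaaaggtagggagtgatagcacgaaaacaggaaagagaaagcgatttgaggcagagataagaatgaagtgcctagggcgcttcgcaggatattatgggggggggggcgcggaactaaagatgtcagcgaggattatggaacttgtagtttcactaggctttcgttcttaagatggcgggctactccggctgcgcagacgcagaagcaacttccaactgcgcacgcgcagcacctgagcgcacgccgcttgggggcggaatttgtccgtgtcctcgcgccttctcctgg
Rpl10l: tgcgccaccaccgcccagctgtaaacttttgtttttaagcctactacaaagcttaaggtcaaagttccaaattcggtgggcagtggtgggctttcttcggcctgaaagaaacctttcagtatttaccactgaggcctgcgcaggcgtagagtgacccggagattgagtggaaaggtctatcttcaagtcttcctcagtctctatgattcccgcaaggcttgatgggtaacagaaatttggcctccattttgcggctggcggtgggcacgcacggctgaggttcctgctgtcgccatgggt
Sycp3: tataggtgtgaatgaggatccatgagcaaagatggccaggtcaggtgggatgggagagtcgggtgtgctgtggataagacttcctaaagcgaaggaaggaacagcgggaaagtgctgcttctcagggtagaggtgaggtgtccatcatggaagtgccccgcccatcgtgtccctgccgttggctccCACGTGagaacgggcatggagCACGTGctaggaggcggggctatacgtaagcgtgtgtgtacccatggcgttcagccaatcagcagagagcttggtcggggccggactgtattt
Taf7l: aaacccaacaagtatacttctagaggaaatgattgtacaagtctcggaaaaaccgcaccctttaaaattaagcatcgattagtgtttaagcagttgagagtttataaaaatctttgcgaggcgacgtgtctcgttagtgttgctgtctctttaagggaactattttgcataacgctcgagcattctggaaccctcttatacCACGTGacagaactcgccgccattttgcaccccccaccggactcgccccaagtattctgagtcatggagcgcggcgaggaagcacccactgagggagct

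Of the motifs searched, the E-box stood further from its background share, although most of the promoters did not hold it. RefSeq promoters were matched for 35 of the 40 genes (42 promoters, some of which overlap), and 19 of the 42 (45.2%) held CACGTG, against 1666 of 21263 protein-coding promoters of the same length (7.84%). Counted by gene, 15 of 35 held at least 1 E-box (42.9%, against 8.91% of all genes). Sycp3, a lateral element protein of the synaptonemal complex, held 2 E-boxes, as did the promoters of Hormad1, Tdrd9 and Fkbp6. The E2F-type motif was in 8 of the 42 (19.05%), against 14.9% of all promoters, so its share was close to the background. Both motifs together were in 5 of 42 (11.9%, against 1.599%), which belong to 4 genes, among them Ddx4.

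Base composition differed less. The median GC content was 61.0% (range 45.0 to 76.0%), against 56.3% over all promoters, and the median ratio of observed to expected CpG was 0.744, against 0.567. The 8 promoters of genes with a C29F4 promoter peak had a median GC content of 61.2% and a median CpG ratio of 0.731, and the other 34 had 61.0% and 0.744, so these values did not set the groups apart. E-boxes were likewise in 4 of those 8 and in 15 of the other 34 (44.1%). The 17 promoters of genes with no promoter peak in the ChIP lists held the motif in 11 cases (64.7%).

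**Figure D1:**
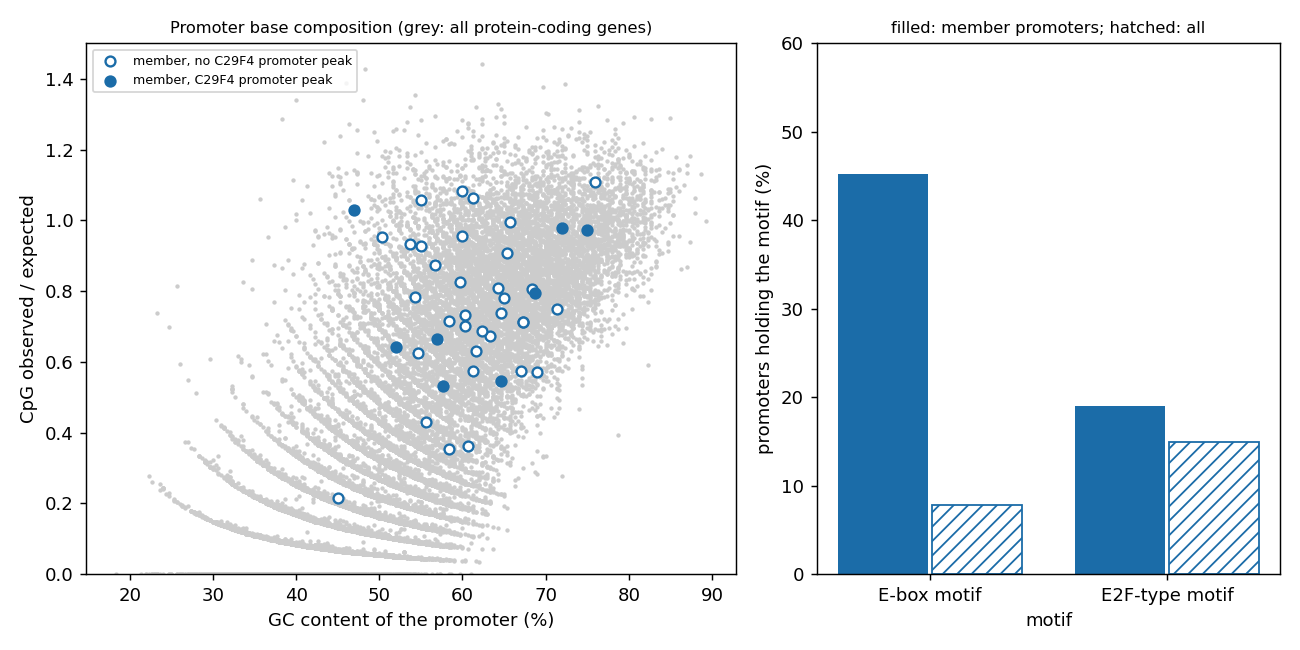
Left, GC content (x axis, %) against the ratio of observed to expected CpG (y axis) for the 42 promoters of the germline genes (circles, filled where the gene had a C29F4 promoter peak) and for all protein-coding promoters (grey; 2 promoters above 1.5 are not drawn). Right, the share of promoters holding each motif, 45.2% of the germline promoters against 7.84% of all for the E-box, and 19.05% against 14.9% for the E2F-type motif.

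With C29F4, 8 of the 40 genes had a promoter peak (20.0%, exact 95% interval 9.05 to 35.6%), against 2.34% of all protein-coding genes. They were Gtsf1, Rpl10l, Taf7l, Dazl, Sycp3, Ddx25, Sohlh2 and Ddx4. Counting any peak in the extended gene body, 14 of 40 had one (35.0%, interval 20.6 to 51.7%), against 12.5% of all. Both background shares lay below the interval of the germline genes. The intervals, Clopper-Pearson, cover counting error only, and the names on the list were not drawn at random from the genome.

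With ab9110 in DMSO, 16 of 40 genes had a promoter peak (40%, interval 24.9 to 56.7%), against 25.1% of all genes, and 22 of 40 had any peak (55.0%, interval 38.5 to 70.7%), against 50.2%. With ab9110 in dTAG the counts were 12 (30.0%, interval 16.6 to 46.5%), against 31.9%, and 17 (42.5%, interval 27.0 to 59.1%), against 45.0%. The background share lay inside the interval for each of these 4 counts, close to its lower end for promoter peaks in DMSO. The input list held a promoter peak at 1 of 40 genes, Dmc1 (2.5%, interval 0.0633 to 13.2%, against 1.25%), and any peak at 2, Dmc1 and Tex14 (5.0%, interval 0.611 to 16.9%, against 4.60%).

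**Figure D2:**
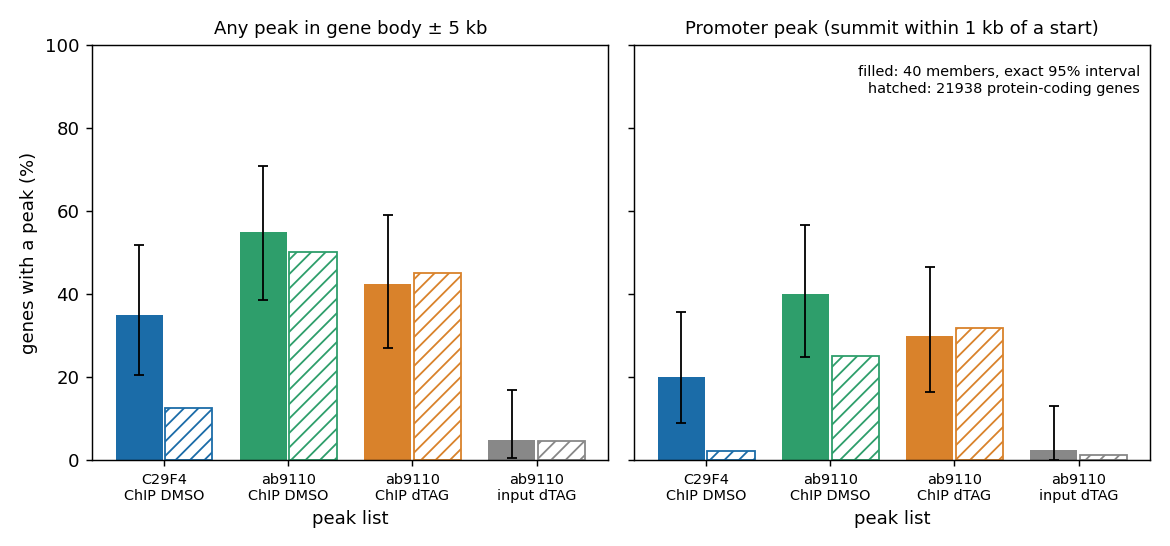
Share of genes (y axis, %) with any peak in the extended gene body (left) and with a promoter peak (right) in each of the 4 lists; filled bars are the 40 germline genes with exact 95% intervals, hatched bars all 21938 protein-coding genes. The filled bar stands clear of the hatched bar with C29F4, at 35.0% against 12.5% and 20.0% against 2.34%, and next to it in dTAG.

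These genes were longer than most, with a median body of 35.2 kb against 17.4 kb, so peaks were also counted per length. Per megabase of merged windows (2.26 Mb), C29F4 had 16 peaks, or 7.08 per Mb, against 3.45 per Mb in the windows of all protein-coding genes and 4.04 per Mb over the chromosomes. For ab9110 in DMSO the density was 16.4 per Mb against 16.7, and in dTAG it was 11.9 against 9.44. The density of C29F4 peaks was thus the one furthest above that of all genes, while the ab9110 DMSO density was level with it. Tex14 alone held 8 of the 37 ab9110 DMSO peaks and 7 of the 27 dTAG peaks in these windows, and none of the C29F4 peaks. Densities without this gene were not computed. The members' C29F4 promoter peaks were of ordinary height for promoters, with a median fold of 3.28 against 3.27 for all promoter peaks of that list.

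Across the lists, 24 of the 40 genes had a promoter peak in at least 1 ChIP list (60%, interval 43.3 to 75.1%, against 40.6% of all genes) and 31 had any peak (77.5%, interval 61.5 to 89.2%, against 63.3% of all genes). The 9 genes without any were Syce1 of the central element, the DNA-binding recombination factor Meiob, the piRNA helicase Mov10l1, the piRNA factors Asz1 and Fkbp6, the meiotic RNA regulator Meioc, the oocyte transcription factor Figla, the sperm surface protein gene Tex101, and Slc25a31, the germ cell ADP/ATP carrier.

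**Figure D3:**
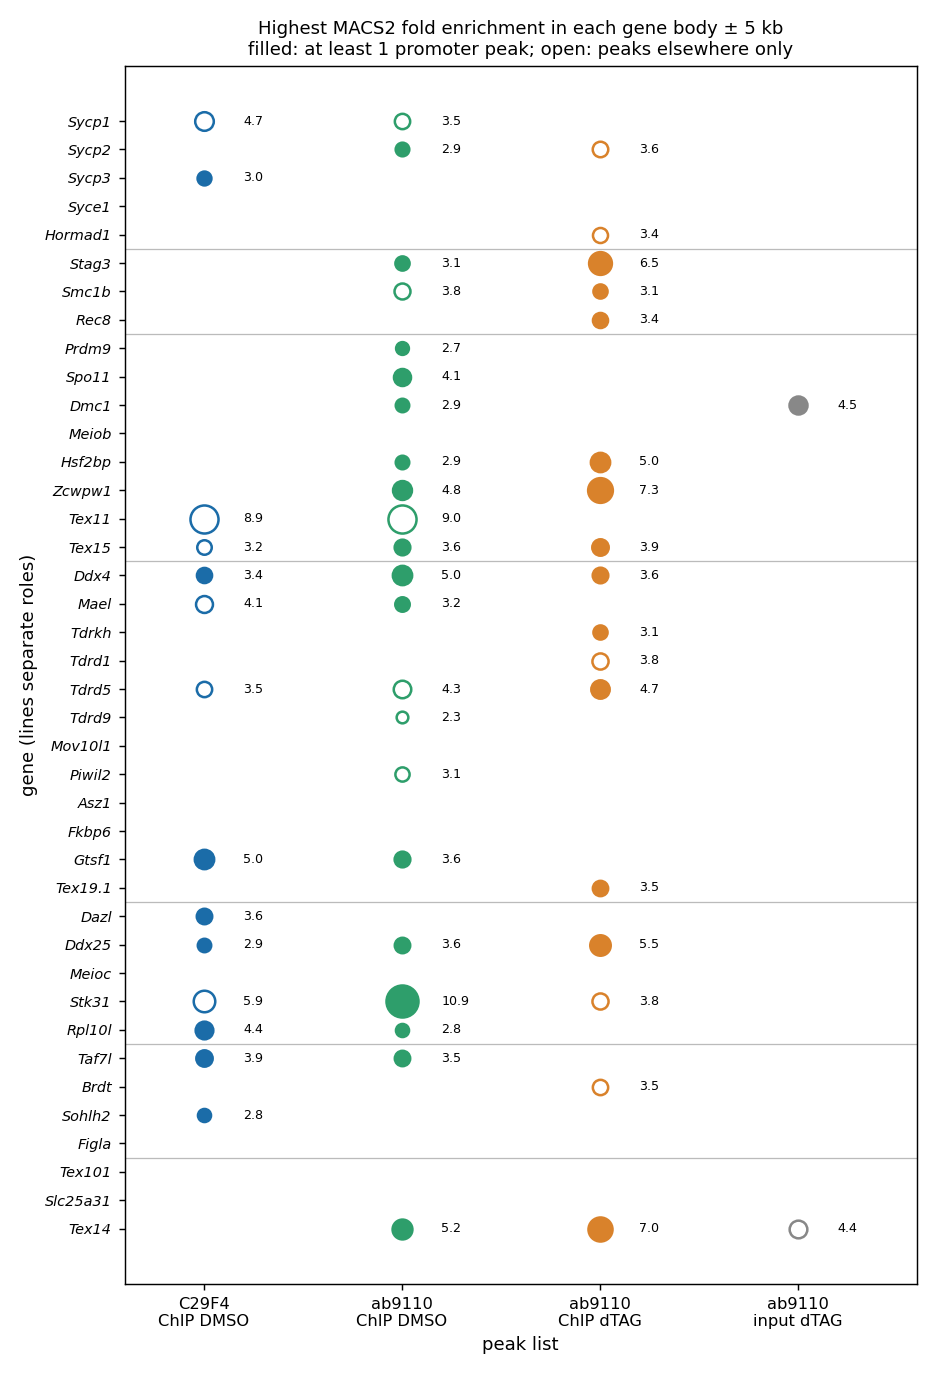
Highest MACS2 fold enrichment (number beside each circle, circle size) in the body of each gene extended by 5 kb, by gene (y axis, grouped by role) and peak list (x axis). Filled circles have at least 1 promoter peak and open circles only peaks elsewhere; with C29F4, the filled circles lie at Sycp3 and from Ddx4 downwards, and there is no circle among the 3 cohesin genes.

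Among the genes of the synaptonemal complex and chromosome axis, Sycp3 had a C29F4 promoter peak of 3.01-fold with its summit 23 bp upstream of the start (25 fragments, −log10 q of 3.93), and no peak in the other lists. Counted from the RefSeq start of the promoter printed above, the summit lay at base -41, in the second of its E-boxes, which begin at bases -64 and -43. Sycp2, another axial element gene, had a promoter peak only with ab9110 in DMSO, 4 bp from the start at 2.93-fold (17 fragments), and a dTAG peak of 3.59-fold downstream of the gene. Sycp1, the transverse filament gene, had an intronic C29F4 peak of 4.74-fold and a pair of intronic ab9110 DMSO peaks of 3.53- and 2.79-fold in other places. Hormad1, an axis protein gene, had 1 intronic dTAG peak of 3.43-fold.

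Of the 3 meiotic cohesin genes, none had a C29F4 peak, where 12.5% of all genes had one, and all 3 had a promoter peak in dTAG, where 31.9% of all genes had one. So few genes give no pattern for the role. Stag3 read 2.40-fold in DMSO and 6.48-fold in dTAG, at a start that lies 337 and 447 bp from that of Gpc2, measured from the DMSO and dTAG summits, and had a further intronic DMSO peak of 3.13-fold. The Smc1b peak (3.10-fold, dTAG) lay 176 bp from the start of Ribc2, and the DMSO peak of this gene, 3.75-fold, lay in an intron. Rec8, the meiotic kleisin, had a dTAG peak of 3.43-fold 691 bp into the gene with no other start within 1 kb. Their dTAG peaks thus sat at paired starts for Stag3 and Smc1b, where the gene that a peak belongs to cannot be told.

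The recombination genes were the role with the most ab9110 DMSO promoter peaks, 6 of 8, against 25.1% of all genes. None had a C29F4 promoter peak, against 2.34% of all genes, so that count was near the background. These 8 genes are too few to give a pattern for the role. Spo11, which makes the meiotic breaks, read 4.14-fold (16 fragments) in DMSO alone. Its summit lay 339 bp past the nearest of its 4 annotated starts, which is internal and not the most 5′ one. Prdm9, whose methyltransferase places those breaks, read 2.66-fold in DMSO alone, and the recombinase gene Dmc1 read 2.88-fold 369 bp upstream of its start. Dmc1 also had an input peak of 4.50-fold (11 fragments) 161 bp inside the start, which did not overlap the ChIP peak. The part of such input signal in the DMSO peak was not tested.

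Hsf2bp, Zcwpw1 and Tex15 had promoter peaks in both ab9110 lists. Zcwpw1, a reader of the histone marks left by PRDM9, read 4.85-fold in DMSO (31 fragments) and 7.35-fold in dTAG (27 fragments), the highest fold among all dTAG peaks of the 40 genes, with the start of Mepce 170 and 84 bp from these summits. A further dTAG peak of Zcwpw1, 4.18-fold, lay 1372 bp upstream and also at Mepce. Hsf2bp read 2.90- and 5.01-fold beside the start of Rrp1b. Tex15, a gene of break repair and transposon silencing with no other start within 1 kb, read 3.34-fold in DMSO and 3.92-fold in dTAG, with another DMSO peak of 3.63-fold 4607 bp upstream. Its C29F4 peak, 3.23-fold, lay in an exon 3428 bp from the nearest start.

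Tex11, the X-linked crossover gene, carried the tallest C29F4 peak among the germline genes. It lay at chrX:100864676-100866100 in an intron and read 8.93-fold (101 fragments, −log10 q of 58.1), and the ab9110 DMSO peak over it read 8.96-fold (70 fragments). No dTAG peak overlapped it. The summits lay in a soft-masked run of over 5 kb, sequence annotated as repeat, where reads that match several places were put at one of them at random. Thinned to the dTAG coverage, the DMSO peak would still pass in 100% of draws.

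In the piRNA group, Gtsf1, a partner of PIWI proteins, had the highest C29F4 promoter fold. Its peak at chr15:103430253-103431064 read 5.03-fold (60 fragments, −log10 q of 21.1) with the summit 91 bp upstream of the nearest start. The ab9110 DMSO peak over it read 3.64-fold (15 fragments), and dTAG had none. No other gene starts within 1 kb of either summit.

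Ddx4, the germ cell RNA helicase also called Vasa, had a promoter peak in all 3 ChIP lists. With C29F4 it read 2.38-fold (41 fragments over a background of 16.7), with ab9110 5.01-fold in DMSO (21 fragments) and 3.34-fold in dTAG (13 fragments). The C29F4 background there was above the list's most frequent value of 3.64. Its other peaks were a C29F4 peak of 3.45-fold downstream of the gene and intronic dTAG peaks of 3.59- and 3.61-fold. Mael had an ab9110 DMSO promoter peak of 3.21-fold and a C29F4 peak of 4.10-fold 3611 bp inside the gene.

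The Tudor genes Tdrkh and Tdrd5 and the transposon control gene Tex19.1 had promoter peaks in dTAG alone, of 3.10-, 4.66- and 3.52-fold. The Tdrkh and Tdrd5 summits lay 96 and 77 bp from the start of a noncoding transcript, and Tex19.1 had no other start within 1 kb. Tdrd5 also had a C29F4 peak of 3.52-fold in an intron, overlapped by a DMSO peak of 4.24-fold, and DMSO peaks of 4.32- and 3.07-fold elsewhere. Tdrd1 had 1 dTAG peak of 3.82-fold, 4074 bp upstream of its own start and 55 bp from that of Ccdc186. Tdrd9 and the PIWI gene Piwil2 had 1 intronic DMSO peak each, of 2.32- and 3.14-fold.

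Among the genes of RNA binding and translation, 3 of 5 had a C29F4 promoter peak, against 2.34% of all genes. Here too, 5 genes are too few to give a pattern for the role. Dazl, a regulator of translation that is needed to make germ cells, read 3.56-fold (36 fragments, −log10 q of 7.97) 310 bp from its nearest start at chr17:50292929-50293446 and had no ab9110 peak in either treatment. Rpl10l, a retrogene for a testis ribosomal protein, read 4.37-fold (52 fragments, −log10 q of 15.5) with C29F4, 31 bp inside its start, and 2.76-fold with ab9110 in DMSO (24 fragments), with no peak in dTAG. Ddx25, a helicase of spermatids, read 2.86-fold with C29F4, 3.52-fold with ab9110 in DMSO and 5.49- and 4.79-fold at a pair of summits in dTAG. These promoter summits lay between 25 and 306 bp from the start of Pus3, and another DMSO peak, 3.56-fold, lay in an exon.

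Stk31, a germ cell kinase-like gene, held the ab9110 DMSO peak with the highest fold among the germline genes. It lay at chr6:49405438-49406657 in an intron and read 10.94-fold (34 fragments over a background of 2.20), while the Tex11 peak stacked more fragments, 70. C29F4 peaks of 5.39- and 5.95-fold lay in that intronic stretch and further into the gene, the second under an ab9110 DMSO peak of 5.05-fold. The dTAG list had neither, and its 1 peak in Stk31, of 3.81-fold, lay elsewhere. The promoter itself had a DMSO peak of 3.35-fold, 107 bp from the start. At the dTAG coverage the pair of intronic DMSO peaks would pass in 100% and 87.8% of draws.

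Of the transcription and chromatin genes, Taf7l, an X-linked relative of a TFIID subunit, read 3.88-fold with C29F4 (17 fragments) 64 bp inside its start, and the E-box of the promoter printed above begins at base -49. Its ab9110 DMSO peak, 3.54-fold (10 fragments), lay 532 bp from the nearest start and did not overlap the C29F4 peak. Sohlh2, a transcription factor of early spermatogonia and oocytes, read 2.76-fold with C29F4 (42 fragments) and had no ab9110 peak. Brdt, a testis bromodomain protein gene, had 1 intronic dTAG peak of 3.52-fold.

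Tex14, which keeps the bridges between germ cells open, stood apart by number, with 8 ab9110 DMSO peaks, 7 dTAG peaks, 2 input peaks and none with C29F4. Of the 8 DMSO peaks, 7 had a summit within 1 kb of another gene's start, and all 7 dTAG peaks did. These were the start of Rad51c, beside that of Tex14, and in the introns of Tex14 the genes of small RNAs: the snRNA genes Rnu1a1 and Gm22068 and the snoRNA genes Rnu3b1, Rnu3b2, Rnu3b3 and Rnu3b4. The folds ran from 2.55 to 5.24 in DMSO and from 3.79 to 7.04 in dTAG. Its second promoter peak, 6.83-fold in dTAG and 3.95-fold in DMSO, lay by Gm22068, 98 and 86 bp from its start, so the gene that these peaks belong to cannot be told apart. The input peaks read 4.19-fold, over the ChIP peaks at Rnu3b4, and 4.40-fold, in an exon, and their part in the ChIP peaks was not tested.

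**Figure D4:**
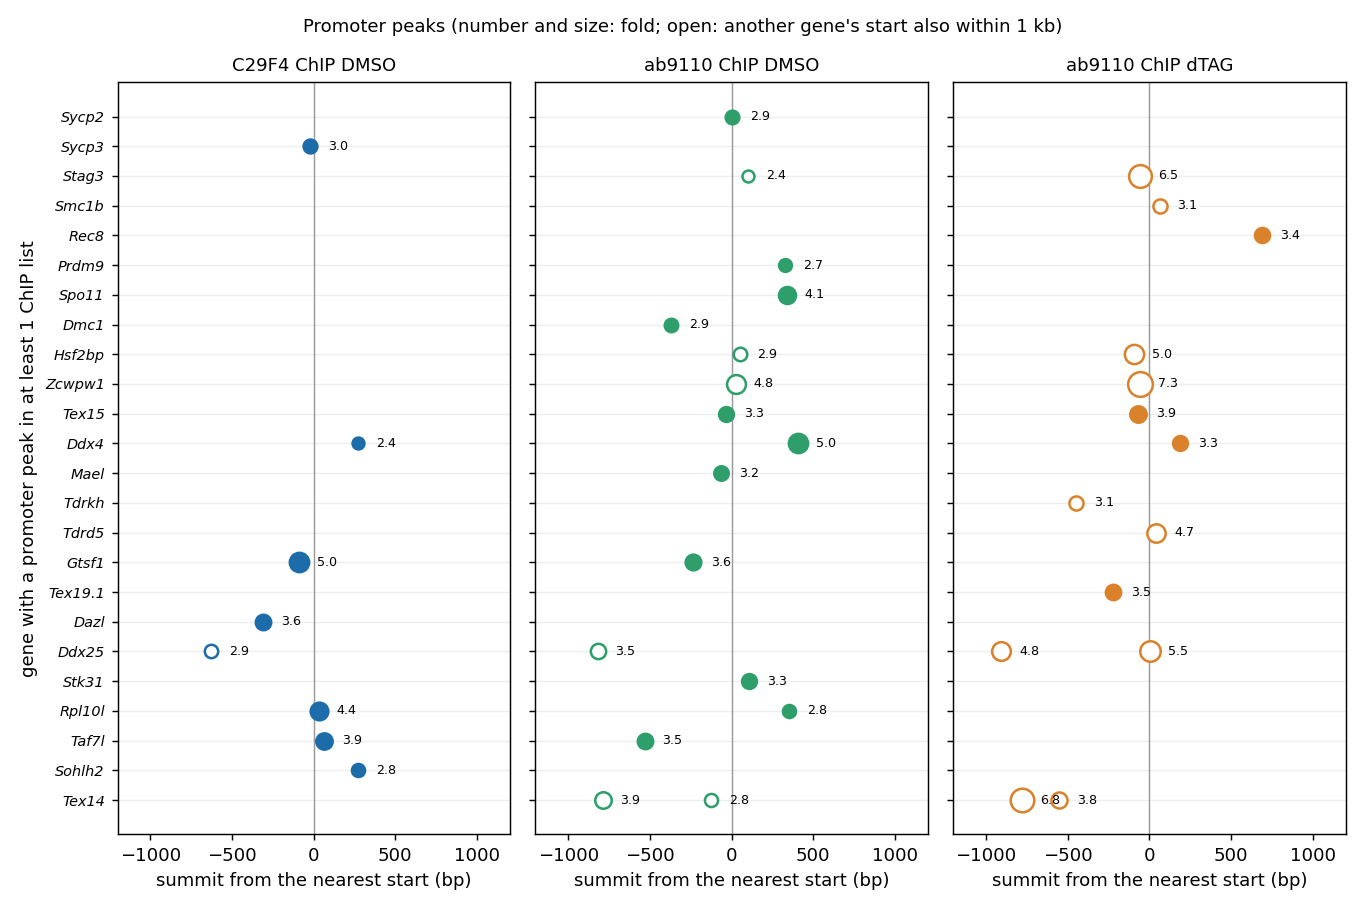
Distance of each promoter summit from the nearest start of its gene (x axis, bp, positive downstream of that start) for the 24 genes with a promoter peak in a ChIP list (y axis), with the fold beside each circle and as its size. Summits upstream of an internal start, such as those of Tex15 and Taf7l with ab9110 in DMSO, have negative values but lie inside the gene. Open circles have another gene's start within 1 kb; they make up 1 of 8 promoter peaks with C29F4, 6 of 17 with ab9110 in DMSO and 10 of 14 in dTAG.

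The share of promoter peaks at paired starts differed between the lists in this way, and counting only summits at no other gene's start left 7 of 40 genes with C29F4 (against 2.08% of all protein-coding genes), 11 with ab9110 in DMSO (against 17.2%) and 4 in dTAG (against 20.0%). This count was added after the values were seen. The 4 in dTAG were Rec8, Tex15, Ddx4 and Tex19.1. The promoter summit furthest from a start was that of Ddx25 in dTAG, 907 bp away, and the nearest summit outside the limit that of Zcwpw1 in dTAG, 1372 bp away.

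Setting the ab9110 lists side by side by treatment, 9 genes had a promoter peak in DMSO and not in dTAG (22.5%, interval 10.8 to 38.5%), against 8.38% of all genes. These were Dmc1, Gtsf1, Mael, Prdm9, Rpl10l, Spo11, Stk31, Sycp2 and Taf7l. In dTAG and not in DMSO there were 5 (12.5%, interval 4.19 to 26.8%, against 15.2%), in both 7 (17.5%, interval 7.34 to 32.8%, against 16.7%), and in neither 19 (47.5%, against 59.7%). The libraries differ in depth: at the dTAG coverage the promoter peaks of these 9 would pass in 7.02 to 66.4% of draws (median 35.0%), and those of the 7 genes with both in 14.8 to 99.1% (median 74.5%). Over the 16 genes with a DMSO promoter peak, 8.11 would be expected to keep one at that depth, and 7 had one in dTAG. Over all protein-coding genes, 11.9% would be expected to keep one, and 16.7% had one in both treatments.

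Of the 7 genes with a promoter peak in both treatments, 6 read a higher fold in dTAG and Ddx4 read a lower one, 3.34 against 5.01. Over all protein-coding genes with both, 83.6% read higher in dTAG, so the direction at the 6 was that of most promoters. The fold depends on the fragments at the summit as well as on the background. The most frequent background was lower in dTAG, and whether this bears on the folds was not tested. The values are set side by side with no test.

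The antibodies were used in separate experiments per the study's methods, so antibody, experiment, depth and number of samples cannot be told apart. By antibody, 5 genes had a promoter peak with C29F4 and with ab9110 in DMSO (12.5%, interval 4.19 to 26.8%), against 1.92% of all genes: Ddx25, Ddx4, Gtsf1, Rpl10l and Taf7l. Of these, Gtsf1, Rpl10l and Taf7l had none in dTAG (7.5%, interval 1.57 to 20.4%, against 0.834%). Of the 8 genes with a C29F4 promoter peak, 6 had no dTAG promoter peak (15.0% of the 40, interval 5.71 to 29.8%, against 1.19% of all genes). These shares include the higher C29F4 share of the germline genes. Over all protein-coding genes, 514 had a C29F4 promoter peak. Of those, 422 also had one with ab9110 in DMSO, against 5 of the 8 here, and 261 had none in dTAG, against 6 of the 8. The dTAG list was made with ab9110, and C29F4 has no dTAG sample, so the loss of C29F4 peaks was not tested. Peak by peak, 8 of the 16 C29F4 peaks in these genes overlapped an ab9110 DMSO peak (50.0%, against 67.0% of all C29F4 peaks), which is 8 of the 37 ab9110 DMSO peaks (21.6%, against 18.1%). Only 2 of the 16 C29F4 peaks overlapped a dTAG peak (12.5%, against 21.7% of all C29F4 peaks), at Ddx25 and Ddx4. Dazl, Sycp3 and Sohlh2 rested on C29F4 alone.

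Around the summits themselves, in 300 bases centred on each, the E-box was in 3 of the 8 C29F4 promoter peaks (Dazl, Sycp3 and Taf7l; 37.5%), against 8.86% of the C29F4 promoter peaks of all protein-coding genes and 2.52% of all C29F4 peaks. The RefSeq promoters of the germline genes, a different stretch, held it in 45.2% of cases, and in 44.1% where the gene had no C29F4 promoter peak. The share at the summits was thus not above that of the germline promoters in general. For ab9110 it was in 2 of 17 in DMSO (11.8%, against 12.9% of all promoter peaks) and in 3 of 14 in dTAG (21.4%, against 12.6%). The C29F4 promoter peaks were also low in repeats, with a median of 3.37% and at most 14.1% of their bases soft-masked, whereas the 8 C29F4 peaks elsewhere in these genes had a median of 62.4%. Promoter peaks of the ab9110 lists were low as well, with medians of 6.18% in DMSO and 7.77% in dTAG. The ab9110 peaks elsewhere in these genes had medians of 56.9% in DMSO and 21.2% in dTAG.

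Other genes of the germ line and its silencing were counted in the same way. Of 29 further meiosis and piRNA genes, 1 had a C29F4 promoter peak, Spata22 at 3.69-fold (3.45%), while 7 had one with ab9110 in DMSO and 6 in dTAG, led in both by Msh4 at 4.26- and 7.08-fold. Of 15 other germ cell regulators, none had a C29F4 promoter peak and 2 had one in each ab9110 list, Prdm14 and Dmrt1 in DMSO and Dnd1 and Kit in dTAG. A difference between these lists and the 40 genes was not tested. The shares over all protein-coding genes were 2.34% with C29F4, 25.1% with ab9110 in DMSO and 31.9% in dTAG, so the C29F4 counts of both lists were near the background. Of 22 genes for PRC1.6 and its partners, likewise none had a C29F4 promoter peak, 12 had one with ab9110 in DMSO (54.5%) and 17 in dTAG (77.3%), led there by Max at 10.03-fold and Mga at 9.57-fold.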

How the data were processed

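The deposited peak lists were made by the authors from ChIP-seq reads aligned to mm10. The submitters' processing notes name STAR 2.7.10, Picard 2.26.0, SAMtools 1.14, bedtools 2.30.0, MACS2 2.2.6 and deepTools 3.5.1. Reads matching several places were put at 1 of the best at random, peaks were kept at q under 0.05, and the C29F4 replicates were merged into 1 list. Each peak carries a fold enrichment over background (a ratio), and −log10 p-values and q-values as the authors deposited them, and whether an input was used as the control was not given in the sources used here. Files with per-fragment counts or coverage were not used here.

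From the fold and the p-value, the whole number of fragments at each summit and its Poisson background were solved (100% of peaks), a step tested on simulated data, as were the overlaps. Coordinates were set against GENCODE M21 and the RefSeq assembly GRCm38.p6, whose chromosomes contain every peak analysed. An overlap was at least 1 bp. The chance of a DMSO peak to pass at the dTAG coverage came from binomial thinning to 58.2%, the summit having to reach the lowest −log10 p of the dTAG list, 4.28. Shares carry exact 95% intervals, there is no test, since each condition has 1 list, and the share over all protein-coding genes, the 40 genes included, serves as background. Genes with a promoter peak in a ChIP list, the 3 with the highest fold in each ChIP list and those with an input peak were named with their values. The 40 genes, the other lists and the settings were chosen with earlier results of these data known. Scripts ran in Python 3.11.15 with numpy 2.4.6, pandas 2.3.3 and SciPy 1.17.1.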

Additional observations from a re-analysis of the deposited data

How the results depend on the processing

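No paired analysis was possible because each condition has 1 peak list: the C29F4 ChIP replicates 4 and 5 were merged before deposit, and no result comes from a test. For the same reason no replicate could be left out. Of 64 values under other settings, 52 stayed within 1.5 times the reported count. The C29F4 counts stayed within that limit under all of the settings tried. Settings that asked for a stricter q moved the others. With ab9110 in DMSO, q under 0.001 left 14 genes with any peak (against 27.4% of all genes) and 10 with a promoter peak (against 12.3%). With ab9110 in dTAG, q under 0.01 left 10 with any peak, and q under 0.001 left 8 with any peak and 7 with a promoter peak. In the input list both stricter limits left 0 with any peak and 0 with a promoter peak. At q under 0.01 the input shares over all genes were 1.07% and 0.237%, and at q under 0.001 they were 0.365% and 0.0684%. Thinning DMSO to the dTAG coverage left 12.2 genes expected with any peak (against 28.2% of all genes) and 8.11 with a promoter peak (against 11.9%). Counting promoter summits at no other gene's start, a setting chosen after seeing the data, left 4 in dTAG (against 20.0% of all genes). Depth limits what could be called: the lowest summits in these genes stacked 14 fragments with C29F4, 9 with ab9110 in DMSO, 7 in dTAG and 9 in the input.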
